A study of Mus musculus with 12 samples.

Results

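Voltage-gated sodium and calcium channel subunits were followed in the neonatal mouse cochlea across 2 ages and 3 positions along the duct. The members were all genes whose array entry carried a single gene symbol of the form Scn, a number and a or b, or a symbol starting with Cacna1, Cacna2d, Cacnb or Cacng. This gave 35 of the 19938 genes with a single symbol: 11 sodium channel genes (8 alpha and 3 beta subunits) and 24 calcium channel genes (10 alpha1, 4 alpha2delta, 3 beta and 7 gamma subunits). Scn4a, Cacnb3 and Cacng6 were not analysed here. The tissue came from C57BL/6 mice, which carried no transgene or treatment, at postnatal day 8 (P8) or at birth (P0). Cochlear tissue was dissected from temporal bones of an age after the otic capsule was taken off. It included the lateral wall and spiral limbus as well as the organ of Corti, and the methods do not name the spiral ganglion. The tissue was cut into apex, middle and base, and the pieces of each region were pooled. The groups were therefore P8 apex, P8 middle, P8 base, P0 apex, P0 middle and P0 base, each with 2 arrays, 1 from each of 2 separate dissection sets, so that the 6 arrays of an age were pieces of 2 pools of animals and no array was a single mouse.

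Voltage-gated sodium channels open on depolarisation and carry the upstroke of the action potential. Each is built on 1 large alpha subunit that forms the pore, and beta subunits with a single membrane span set its gating and its place in the membrane. Voltage-gated calcium channels have a pore-forming alpha1 subunit, which defines the L, P/Q, N, R or T type, and most alpha1 subunits work with an extracellular alpha2delta and an intracellular beta subunit. In the cochlea, L-type channels with the Cacna1d alpha1 subunit drive transmitter release from hair cells, and sodium channels serve the spiral ganglion neurons and, before hearing begins, the immature hair cells. Most gamma subunit genes encode transmembrane AMPA receptor regulatory proteins (TARPs), which are named for their likeness to the gamma subunit of the muscle channel and act mainly on glutamate receptors.

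Values were log2 signals after robust multiarray averaging (RMA), a method that corrects background, equalises arrays and summarises probes. They compare samples for a gene and not one gene with another. Array medians lay between 7.21 and 7.29, and the median SD between the 2 arrays of a group was 0.175. A gene was tested where its mean exceeded 6 in at least 1 group, and 33 of the 35 members were among the 16306 genes tested. Scn10a, the Nav1.8 channel of nociceptors, averaged 5.54 at P8 and 5.56 at P0, and the TARP gene Cacng3 averaged 4.90 at P8 and 5.06 at P0, and neither was tested. Scn1a, Scn3a and Scn11a exceeded the level only at P0 and Scn7a only at P8, so that their differences had one side at or below the level. Where the lower side averaged under 6, the difference is given as a lower bound.

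The ages were compared with limma on the mean of the 3 regions, and a gene passed if it had a fold of at least 2 and a p under 0.05 after Benjamini-Hochberg adjustment over the genes tested. Of the 33 members 5 passed. Scn7a and Cacng4 rose (2 members, where 2.06% of all tested genes rose), and Scn9a, Cacna1h and Scn3b fell (3 members, where 1.14% fell). The median difference, P8 minus P0, was -0.18 over the members and 0.00 over all tested genes, with 20 members below 0 and 13 above. At an adjusted p alone, with no fold required, 13 members differed, 9 lower and 4 higher at P8, beside 9.19% of all genes lower and 9.52% higher. The 6 P8 arrays lay entirely above the 6 P0 arrays for 5 members (8.08% of all genes) and entirely below them for 7 members (7.41% of all genes). The limit is the number of pools. With the mean of each pool as the unit, 2 against 2, 0 members and 5 of all genes passed (limma adjusted p from 0.0654 for Scn9a to 0.378 for Cacng4), while the same 5 members passed with the pool as a random block (1.91% of all genes higher and 0.987% lower).

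**Figure D1:**
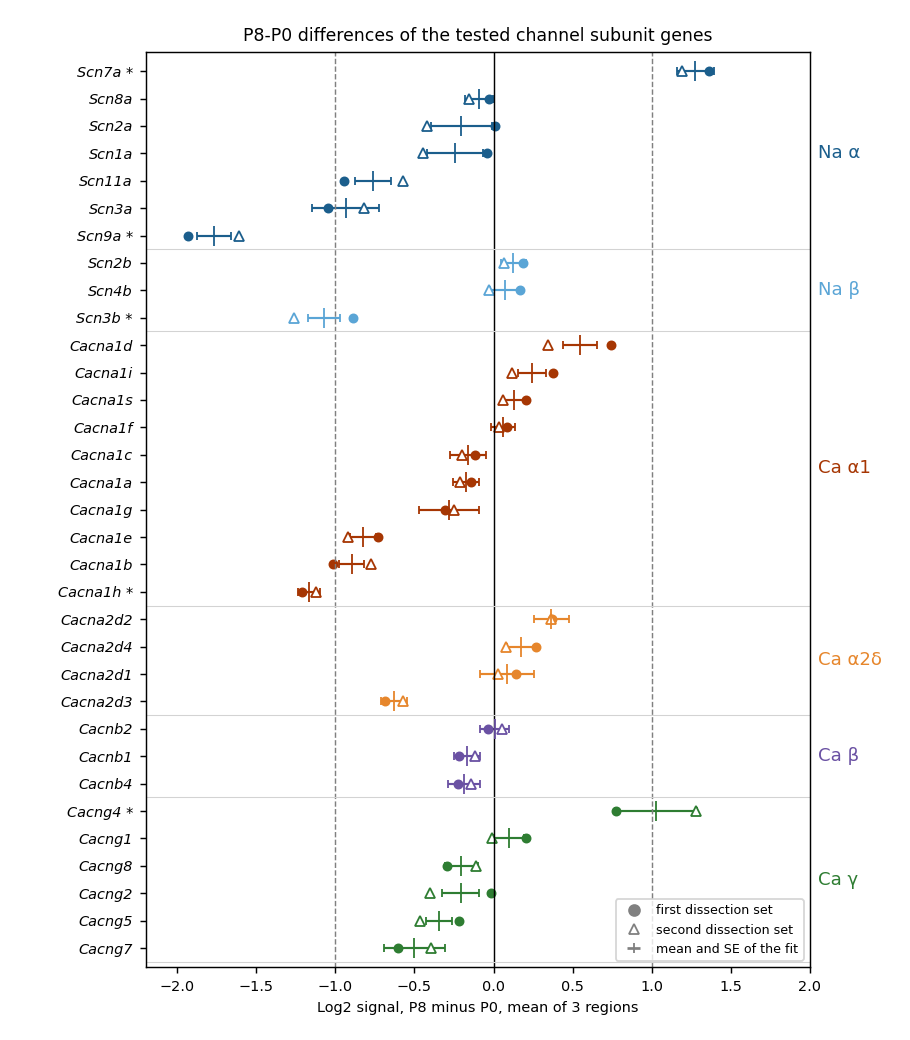
P8 minus P0 difference in log2 signal (horizontal axis) for the 33 tested members, grouped by subunit class, with the first dissection set as filled circles, the second as open triangles and the mean with its standard error (SE) as a bar. Asterisks mark the 5 members that passed the test, dashed lines mark a fold of 2 in either direction, and Scn9a at -1.77 and Scn7a at +1.28 lie at the ends.

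The tissue markers moved with age as well, which bears on every difference between the ages. In pooled tissue, fewer cells of a type and less RNA per cell cannot be told apart. The marker counts stand beside 2.06% of all tested genes that rose and 1.14% that fell. Of 15 neuron markers, 5 fell (Elavl4, Gap43, Nefl, Nefm and Stmn2) and 0 rose, and their summed linear signal was 4478 to 7953 in the P8 arrays and 7868 to 10630 in the P0 arrays. Of 14 Schwann cell and glia markers, 11 were tested, 4 rose (Gjc3, Mal, Pmp22 and S100b) and 0 fell, with sums of 11170 to 15160 at P8 and 5662 to 7542 at P0. Of 15 hair cell markers, 14 were tested, Ocm, Slc26a5 and Tmc1 rose and Atoh1 fell, with sums of 4694 to 8789 at P8 and 4527 to 4929 at P0. Strial markers (4 of 10 rose), spiral ligament markers (2 of 10) and smooth muscle and pericyte markers (1 of 10) also had members that rose and 0 that fell, and 0 of 14 skeletal muscle, 3 red blood cell and 8 macrophage markers tested passed. The part of these cell types in the channel results was not tested.

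Among the sodium channel alpha subunits, Scn9a had the lowest P8 minus P0 difference. It encodes Nav1.7, the channel best known from peripheral sensory neurons. The 2 arrays, first set and then second set here and below, read 5.58 and 6.03 in P8 apex, 6.07 and 6.01 in P8 middle and 6.00 and 6.40 in P8 base, against 8.03 and 8.08 in P0 apex, 8.02 and 7.84 in P0 middle and 7.40 and 7.35 in P0 base. All P8 arrays were therefore well below all P0 arrays, and at P8 the signal was close to the level of 6. Scn9a fell by 1.77 ± 0.11 on the log2 scale (SE), 3.41-fold lower at P8 (limma adjusted p = 1.92e-05). The difference was -1.93 in the first set and -1.61 in the second. A second Scn9a entry on the array fell by 1.49 ± 0.11 (limma adjusted p = 5.26e-05), a lower bound since it averaged 5.16 at P8.

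Scn3a encodes Nav1.3, the embryonic neuronal channel. Its arrays read 5.80 and 5.39 in P8 apex, 5.71 and 5.35 in P8 middle and 6.17 and 5.55 in P8 base, against 6.88 and 6.35 in P0 apex, 6.98 and 6.13 in P0 middle and 6.96 and 6.27 in P0 base. The first set was the higher in every group, so that P8 and P0 overlapped only across sets, and within each set all P8 arrays were the lower. The difference was -0.93 ± 0.21 (limma adjusted p = 0.0157), under the fold of 2 and a lower bound.

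Scn11a encodes Nav1.9, a channel of small sensory neurons. It read 5.19 and 5.78 in P8 apex, 5.49 and 5.55 in P8 middle and 5.55 and 5.47 in P8 base, against 6.70 and 6.40 in P0 apex, 6.18 and 6.06 in P0 middle and 6.19 and 6.08 in P0 base. The ages did not overlap, and the P8 arrays were all under 6. The difference of -0.76 ± 0.11 is a lower bound (limma adjusted p = 0.00213, fold under 2).

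Scn2a, the Nav1.2 channel of unmyelinated axons, was the member whose result turned on the choice of array entry. The chosen entry, that with the highest mean of 14, read 8.52 and 7.97 in P8 apex, 8.49 and 7.67 in P8 middle and 8.39 and 7.74 in P8 base, against 8.26 and 8.33 in P0 apex, 8.43 and 8.16 in P0 middle and 8.67 and 8.15 in P0 base. Its ages overlapped, and its difference of -0.20 ± 0.19 did not pass (limma adjusted p = 0.520). Of the 14 entries, 13 were above the level in at least 1 group and all 13 had a difference below 0, reaching -1.08, and 6 of them averaged under 6 at P8, so that their differences are lower bounds. Tested one by one among 17864 entries, 2 of the 13 passed, 9 had an adjusted p under 0.05 with no fold required, and 12 did so with the dissection set as a block. The chosen entry was the 1 of the 13 with the smallest difference, and the mean over all Scn2a entries was -0.68 (limma adjusted p = 0.000372).

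**Figure D2:**
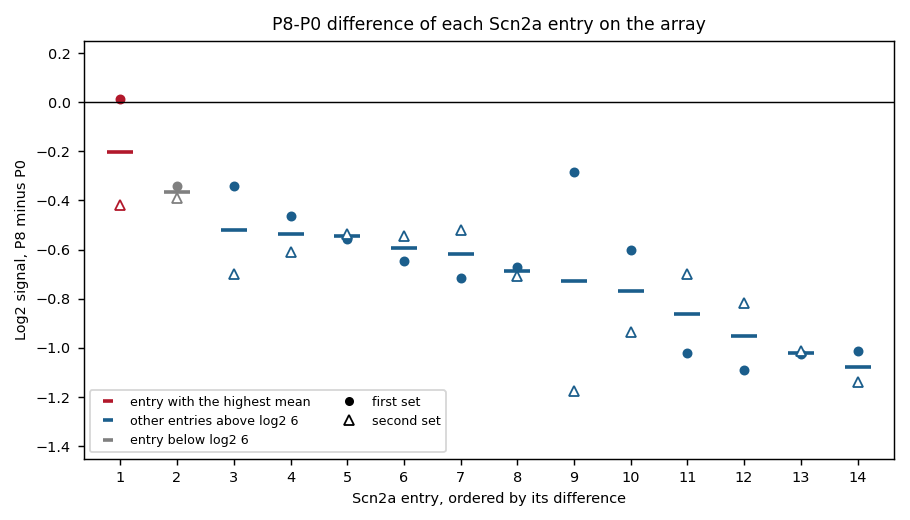
P8 minus P0 difference in log2 signal (vertical axis) of the 14 Scn2a entries on the array, ordered by size, with the bar as the mean of the 3 regions and both sets, circles for the first set and triangles for the second. The entry with the highest mean (red) is the closest to 0 at -0.20, and the other 12 entries above the level reach -1.08.

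Scn1a, the Nav1.1 channel of fast-firing neurons, sat around the level of 6. It read 6.02 and 5.49 in P8 apex, 6.30 and 5.51 in P8 middle and 6.02 and 5.47 in P8 base, against 6.48 and 6.02 in P0 apex, 6.01 and 5.95 in P0 middle and 5.98 and 5.85 in P0 base. The second set alone was lower at P8 (-0.45, against -0.04 in the first set), and the difference of -0.24 ± 0.18, a lower bound, did not pass (limma adjusted p = 0.396). Scn8a, the Nav1.6 channel of nodes of Ranvier, ranged from 6.66 to 7.01 at P8 and from 6.76 to 7.06 at P0, and did not pass either. Another 3 array entries each matched several of Scn1a, Scn2a, Scn3a and Scn9a, whose sequences are alike, and belonged to no member. Of these, the 2 above the level at either age differed between the ages by -0.70 and, as a lower bound, by -1.27.

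Scn7a was the sodium channel alpha subunit that rose. It encodes Nax, a relative of the pore subunits that senses extracellular sodium and is known from glia, Schwann cells and some neurons. Its arrays read 6.31 and 5.91 in P8 apex, 6.87 and 6.49 in P8 middle and 6.85 and 7.04 in P8 base, against 5.19 and 5.09 in P0 apex, 5.49 and 5.20 in P0 middle and 5.28 and 5.57 in P0 base. The ages did not overlap, and the P0 arrays all lay under 6, so the rise of 1.28 ± 0.12, or 2.42-fold, is a lower bound (limma adjusted p = 0.000162).

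These genes are neighbours on chromosome 2, in the order Scn3a, Scn2a, Scn1a, Scn9a and Scn7a in the RefSeq annotation of GRCm38.p6, with Csrnp3, Galnt3 and Ttc21b between Scn2a and Scn1a. The P8 minus P0 differences in that order were -0.93, -0.20, -0.24, -1.77 and 1.28, so that Scn9a and Scn7a, which stand side by side, moved in opposite directions. Their RefSeq promoters, 250 bases before to 50 after the annotated start, are shown for that reason, with the promoter of the calcium channel gene Cacna1b, which is described below, as an example rich in CpG. A promoter entry was found for 27 of the 35 members. Capitals mark the TATA box (TATAAA), the GC box (GGGCGG), the CCAAT box (CCAAT) and the E box CAGCTG on either strand. The Scn9a promoter, chr2:66634913-66635212 on the minus strand, had a GC content of 57.3% and 9 CpG. The Scn7a promoter, chr2:66784861-66785160 on the minus strand, had 54% and 3 CpG. The Cacna1b promoter, chr2:24763103-24763402 on the minus strand, had 72.3% and 35 CpG.
Scn9a: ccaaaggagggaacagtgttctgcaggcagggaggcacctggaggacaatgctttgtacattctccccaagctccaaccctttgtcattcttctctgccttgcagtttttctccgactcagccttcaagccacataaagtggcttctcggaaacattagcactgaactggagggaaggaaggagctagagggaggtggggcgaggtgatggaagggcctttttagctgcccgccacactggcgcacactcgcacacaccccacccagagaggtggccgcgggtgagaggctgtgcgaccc
Scn7a: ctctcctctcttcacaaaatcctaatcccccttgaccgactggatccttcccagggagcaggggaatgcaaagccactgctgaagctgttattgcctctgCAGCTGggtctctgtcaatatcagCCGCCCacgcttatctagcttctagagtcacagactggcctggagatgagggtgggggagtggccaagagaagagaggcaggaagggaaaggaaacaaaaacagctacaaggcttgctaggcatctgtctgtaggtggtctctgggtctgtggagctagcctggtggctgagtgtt
Cacna1b: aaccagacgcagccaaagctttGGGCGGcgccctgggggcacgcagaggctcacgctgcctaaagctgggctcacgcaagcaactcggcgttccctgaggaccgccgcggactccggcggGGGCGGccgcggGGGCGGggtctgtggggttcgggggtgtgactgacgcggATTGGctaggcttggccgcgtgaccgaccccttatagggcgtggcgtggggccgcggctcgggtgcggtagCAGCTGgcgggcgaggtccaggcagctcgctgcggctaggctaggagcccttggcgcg
No marked motif occurred in the Scn9a window, the Scn7a window held 1 GC box and 1 E box, and the Cacna1b window held 3 GC boxes, 1 CCAAT box and 1 E box. Over the 32851 promoters of this length, the median GC content was 52.7% and the median CpG count 7. The GC box occurred in 35.7% of them, the CCAAT box in 37.4%, the E box in 16.3% and the TATA box in 13.6%.

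Of the sodium channel beta subunits, Scn3b fell. It encodes the beta3 subunit, which is prominent in the embryonic nervous system. The arrays read 6.88 and 6.93 in P8 apex, 6.78 and 6.59 in P8 middle and 6.57 and 6.35 in P8 base, against 7.65 and 8.07 in P0 apex, 7.76 and 7.86 in P0 middle and 7.48 and 7.72 in P0 base. No P8 array reached the lowest P0 array. Scn3b fell by 1.07 ± 0.10 (2.10-fold lower, limma adjusted p = 0.000184), by 0.89 in the first set and by 1.26 in the second. Scn2b ranged from 6.96 to 7.39 at P8 and from 6.96 to 7.16 at P0. Scn4b, the beta4 subunit, ranged from 6.03 to 6.48 at P8 and from 6.01 to 6.42 at P0. Neither passed, with differences of 0.13 ± 0.08 and 0.07 ± 0.09.

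The 3 T-type calcium channels, which open at low voltages, had different values. Cacna1h (Cav3.2) read 6.90 and 7.08 in P8 apex, 6.91 and 7.04 in P8 middle and 6.96 and 6.92 in P8 base, against 8.26 and 8.27 in P0 apex, 8.13 and 8.09 in P0 middle and 8.00 and 8.04 in P0 base. The arrays of an age were close together and the ages were more than 0.9 apart. Cacna1h fell by 1.17 ± 0.07 (2.25-fold lower, limma adjusted p = 1.92e-05), by a similar amount in the first set (-1.21) and the second (-1.12). Cacna1g (Cav3.1) ranged from 7.82 to 8.92 at P8 and from 8.32 to 9.00 at P0, with a difference of -0.28 ± 0.19. Cacna1i (Cav3.3) ranged from 6.14 to 6.53 at P8 and from 6.02 to 6.14 at P0, a difference of 0.24 ± 0.09 that did not pass (limma adjusted p = 0.0878) although the arrays of the 2 ages did not overlap. T-type currents are known from immature hair cells.

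The N-type and R-type alpha1 subunits, which carry presynaptic calcium entry in neurons, were lower at P8 by less than 2-fold. Cacna1b (N-type) ranged from 6.36 to 6.60 at P8 and from 7.07 to 7.56 at P0, a difference of -0.90 ± 0.08 (limma adjusted p = 0.000133). Cacna1e (R-type) ranged from 8.92 to 9.22 at P8 and from 9.69 to 10.04 at P0, a difference of -0.82 ± 0.08 (limma adjusted p = 0.000273). Neither gene's ages overlapped. Cacna1a (P/Q-type) ranged from 7.08 to 7.43 at P8 and from 7.29 to 7.53 at P0, and its difference of -0.18 ± 0.08 did not pass.

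The L-type alpha1 subunits had no member that passed. Cacna1d (Cav1.3), the channel of hair cell synapses, read 9.21 and 9.02 in P8 apex, 9.23 and 8.98 in P8 middle and 8.84 and 9.00 in P8 base, against 8.34 and 8.60 in P0 apex, 8.40 and 8.71 in P0 middle and 8.32 and 8.65 in P0 base. Every P8 array was above every P0 array. The difference of 0.54 ± 0.11 (1.46-fold higher) had a limma adjusted p of 0.0085 and stayed under the fold of 2. It was 0.74 in the first set and 0.35 in the second. Cacna1c (Cav1.2), the channel of heart and smooth muscle, ranged from 7.74 to 8.12 at P8 and from 7.88 to 8.40 at P0. Cacna1f (Cav1.4), the photoreceptor channel, averaged under 6 at both ages and its difference is not read. Cacna1s (Cav1.1), the channel of skeletal muscle, read 6.54 and 6.39 in P8 apex, 6.42 and 6.41 in P8 middle and 6.46 and 6.43 in P8 base, against 6.23 and 6.39 in P0 apex, 6.25 and 6.28 in P0 middle and 6.34 and 6.38 in P0 base. Its ages did not overlap, but the difference of 0.13 ± 0.07 was small and did not pass (limma adjusted p = 0.247).

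**Figure D3:**
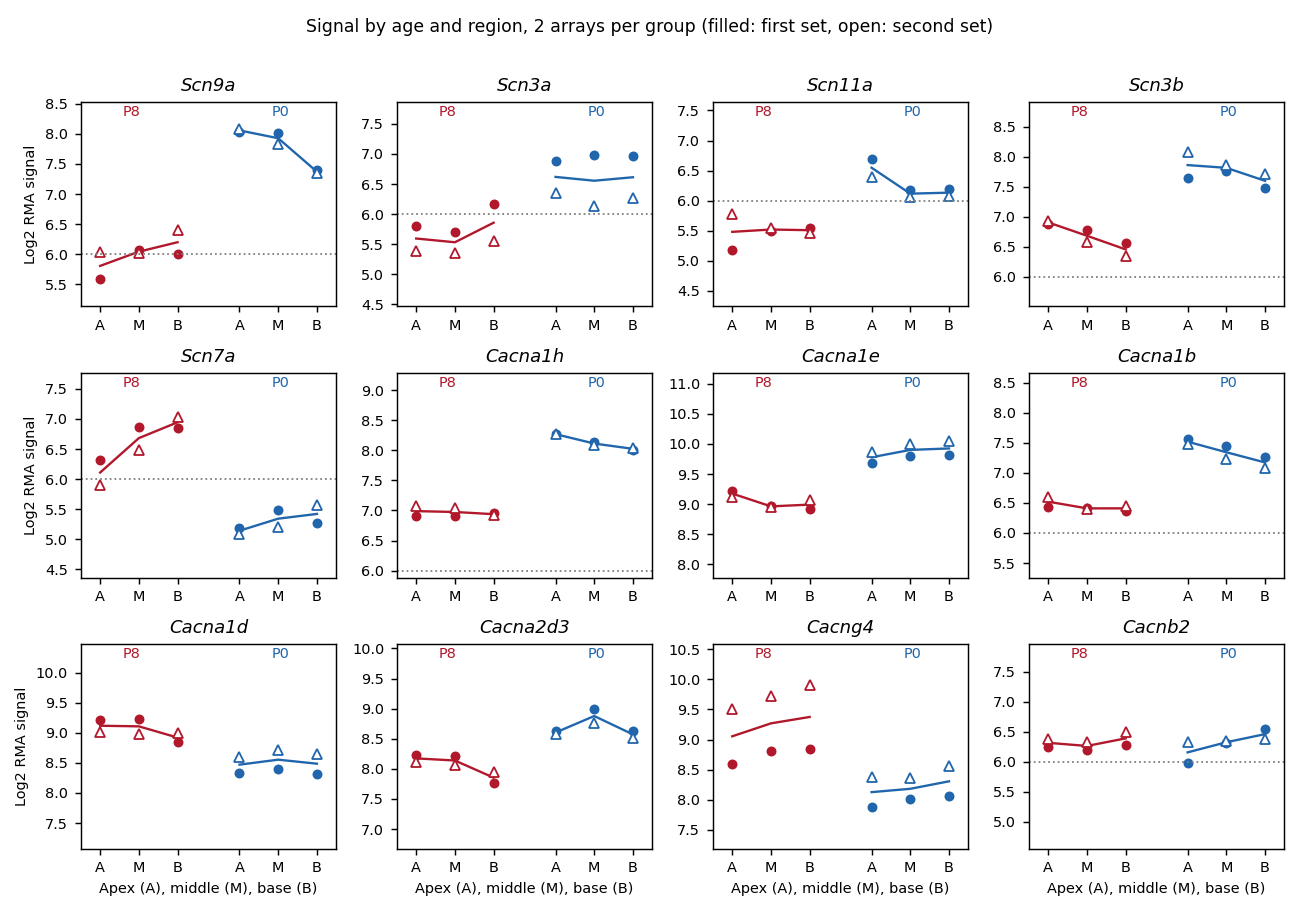
Log2 RMA signal (vertical axis, 3.4 units in every panel) of 12 members in apex, middle and base at P8 (red) and P0 (blue), with the first set as filled circles, the second as open triangles and lines through the group means. The dotted line is the level of 6. For Scn9a, Scn11a, Scn3b, Cacna1h, Cacna1e, Cacna1b and Cacna2d3 all P8 arrays lie below all P0 arrays. For Scn7a, Cacna1d and Cacng4 all P8 arrays lie above, and for Scn3a and Cacnb2 the ages overlap.

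Of the 4 alpha2delta and 3 beta subunits of calcium channels, 0 passed between the ages. Among the alpha2delta subunits, which bring channels to the membrane, Cacna2d3 ranged from 7.76 to 8.23 at P8 and from 8.51 to 8.99 at P0, a difference of -0.63 ± 0.08 (limma adjusted p = 0.000994) under the fold of 2. Cacna2d2 ranged from 8.50 to 8.89 at P8 and from 7.98 to 8.58 at P0, a difference of 0.37 ± 0.11 (limma adjusted p = 0.0485) that also stayed under the fold of 2. Cacna2d1 (8.83 to 9.89 at P8, 9.05 to 9.63 at P0) and Cacna2d4 (6.89 to 7.17 at P8, 6.49 to 7.07 at P0) met neither criterion. The beta subunits bind inside the cell and traffic the pore to the membrane. Cacnb2, the main beta subunit of inner hair cell channels, read 6.25 and 6.38 in P8 apex, 6.20 and 6.33 in P8 middle and 6.28 and 6.50 in P8 base, against 5.98 and 6.33 in P0 apex, 6.31 and 6.34 in P0 middle and 6.54 and 6.38 in P0 base. The ages overlapped and the difference of 0.01 ± 0.09 had no stable sign.

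Cacnb1, the beta subunit of the skeletal muscle channel, read 7.87 and 7.97 in P8 apex, 7.70 and 7.88 in P8 middle and 7.83 and 8.02 in P8 base, against 8.09 and 8.09 in P0 apex, 8.10 and 8.02 in P0 middle and 7.88 and 8.10 in P0 base, a difference of -0.17 ± 0.08 that did not pass. Cacnb4, a neuronal beta subunit, ranged from 7.17 to 7.56 at P8 and from 7.32 to 7.67 at P0. Skeletal muscle markers summed to 3673 in the first P0 apex array and to at most 1964 in the 5 other P0 arrays. In that array the muscle subunit genes Cacna1s (6.23) and Cacng1 (6.77) had their lowest P0 values, and Cacnb1 (8.09) did not. This was not particular to muscle types. Cacna1a (7.29), Cacna2d2 (7.98) and Cacng4 (7.88), among others, also had their lowest P0 values there, and other members, such as Scn9a (8.03), did not.

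The gamma subunit genes held the second member that rose. Cacng4, a TARP, read 8.60 and 9.51 in P8 apex, 8.81 and 9.72 in P8 middle and 8.85 and 9.90 in P8 base, against 7.88 and 8.37 in P0 apex, 8.01 and 8.35 in P0 middle and 8.06 and 8.56 in P0 base. All P8 arrays were higher, narrowly in the first set, whose lowest P8 value of 8.60 stood just above the second set's P0 base value of 8.56. Cacng4 rose by 1.03 ± 0.26 (2.04-fold, limma adjusted p = 0.0257), by 0.77 in the first set and by 1.28 in the second. The call was lost without any 1 of the first set's P0 arrays or the second set's P8 arrays, with adjusted p-values up to 0.0756 or a fold under 2. Its neighbours on chromosome 11, Cacng1 and Cacng5, did not rise. Cacng1, the gamma subunit of skeletal muscle, read 7.37 and 7.20 in P8 apex, 7.16 and 7.14 in P8 middle and 7.30 and 7.05 in P8 base, against 6.77 and 7.15 in P0 apex, 7.08 and 7.07 in P0 middle and 7.38 and 7.19 in P0 base, a difference of 0.10 ± 0.10. The TARP gene Cacng5 ranged from 6.72 to 7.01 at P8 and from 6.94 to 7.61 at P0, a difference of -0.34 ± 0.08 (limma adjusted p = 0.0211) under the fold of 2. The TARP genes Cacng2 (-0.21 ± 0.12), Cacng7 (-0.50 ± 0.19) and Cacng8 (-0.20 ± 0.11) did not pass, and a second Cacng2 entry had a difference of -0.40.

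Region by region, Scn9a and Cacna1h fell in apex, middle and base alike. In the apex 3 members fell and 0 rose (background 1.09% lower and 1.55% higher), with Scn9a at -2.25 ± 0.19, Cacna1h at -1.28 ± 0.12 and Scn11a at -1.07 ± 0.20, where Scn9a and Scn11a averaged under 6 at P8 and their differences are lower bounds. In the middle 3 members fell (background 0.803%) and 1 rose (background 1.55%), with Scn9a at -1.88 ± 0.19, Cacna1h at -1.14 ± 0.12, Scn3b at -1.13 ± 0.18 and Scn7a at 1.34 ± 0.20. In the base 3 fell (background 0.681%) and 1 rose (background 1.51%), with Scn9a at -1.17 ± 0.19, Cacna1h at -1.09 ± 0.12, Scn3b at -1.14 ± 0.18 and Scn7a at 1.52 ± 0.20. Scn7a averaged under 6 at P0 in every region, so that its differences by region are lower bounds. In the apex Scn7a (0.97 ± 0.20, limma adjusted p = 0.0321) and Scn3b (-0.95 ± 0.18, limma adjusted p = 0.0192) stayed just under the fold of 2 as measured. With the dissection set as a block, Cacng4 also passed in the middle (limma adjusted p = 0.00162, background 2.35% higher) and the base (0.00186, background 2.25% higher), and Scn3a in the apex (0.000435, background 1.75% lower) and the middle (0.000483, background 1.33% lower), again as lower bounds for Scn3a. Each region had 2 arrays an age, and leaving out 1 of them lost some of these calls. In the base these were Scn3b without the second P8 or second P0 array (adjusted p up to 0.0892), Scn7a without the second P8 or first P0 array (up to 0.0578) and Scn9a without the first P8 array or either P0 array (up to 0.0951). In the middle these were Scn3b without the second P8 array or either P0 array (up to 0.072) and Scn7a without the first P8 or second P0 array (up to 0.0698), and in the apex Scn11a without the first P8 or first P0 array (up to 0.149).

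Along the tonotopic axis, apex over base, a gene passed with an adjusted p under 0.05 and a fold of at least 1.5. No member passed at P8 (0 of 33, beside 0.178% of all genes higher and 0.0184% lower) or at P0 (0 of 33, beside 0.00613% higher and 0% lower). Before adjustment, at a p under 0.05 and a fold of 1.5 or more, 2 members were lower in the apex at P8, Scn7a and Cacna2d1 (background 0.736%), and 1 was higher in the apex at P0, Scn9a (background 0.595%). Scn7a in P8 apex averaged 6.11, against 6.94 in P8 base, a difference of -0.83 ± 0.20 (limma adjusted p = 0.324) that was -0.54 in the first set and -1.13 in the second. Since arrays of a set deviated alike, the set was also taken as a block, and then Scn7a was lower in the P8 apex (limma adjusted p = 0.0403, background 0.442% lower). The pieces of a set and age came from the same animals, so each pool was taken as a block as well. With that block Scn7a (0.00864) and Cacna2d1 (0.0209) were lower in the P8 apex (background 1.26%), and Scn9a (0.0141) was higher in the P0 apex (background 0.73%). Cacna2d1 in P8 apex read 8.83 and 9.44, against 9.89 and 9.75 in P8 base, so that its sets differed in size (-1.06 and -0.32). A second Cacna2d1 entry read 9.17 and 9.07 in P8 apex and 9.27 and 9.41 in P8 base. It did not have the large difference of the first set, and its apex-base difference was not tested.

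Scn9a had apex-base differences of opposite sign at the 2 ages. In the apex it averaged 5.81 at P8 and 8.06 at P0, and in the base 6.20 at P8 and 7.37 at P0. Its apex-base difference was -0.39 ± 0.19 at P8, a lower bound since the apex is below the level, and 0.69 ± 0.19 at P0, with both sets alike at each age. The second Scn9a entry read 6.95 and 6.52 in P0 apex and 6.52 and 6.36 in P0 base, a smaller difference in both sets. At P8 that entry lay under 6 in every array, and its apex-base differences were not tested. The change in the chosen Scn9a entry is given next. The change of -1.08 ± 0.26 did not pass without a block (unadjusted p = 0.00286, beside 0% of all genes called in either direction after adjustment) or with the set as a block (0.149), and passed with each pool as a block (0.0136, background 0.337% lower). The neuron marker sum, beside this, was 6555 and 7953 in P8 apex and 4651 and 4478 in P8 base, and 9902 and 10630 in P0 apex and 8090 and 7868 in P0 base. The sum was higher in the apex at both ages, and it weighs genes of high signal most. At P8 the largest apex-base differences among the markers were those of Isl1 (1.77), Syt1 (1.54) and Gata3 (0.92). Gata3 had the highest signal of the 15, with a mean of 10.84 at P8. The higher sum in the P8 apex therefore does not stand for all 15 markers alike. The median apex-base difference of the 15 markers was 0.38 at P8 and 0.26 at P0. Single markers ran the other way, Stmn3 (-0.74) and Gap43 (-0.27) at P8 and Nefh (-0.47), Thy1 (-0.46) and Rbfox3 (-0.38) at P0. The part of the neuron markers in the Scn9a values was not tested. The middle piece lay between apex and base for 14 of 33 members at P8 (44.9% of all genes) and for 22 of 33 at P0 (50.5% of all genes).

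**Figure D4:**
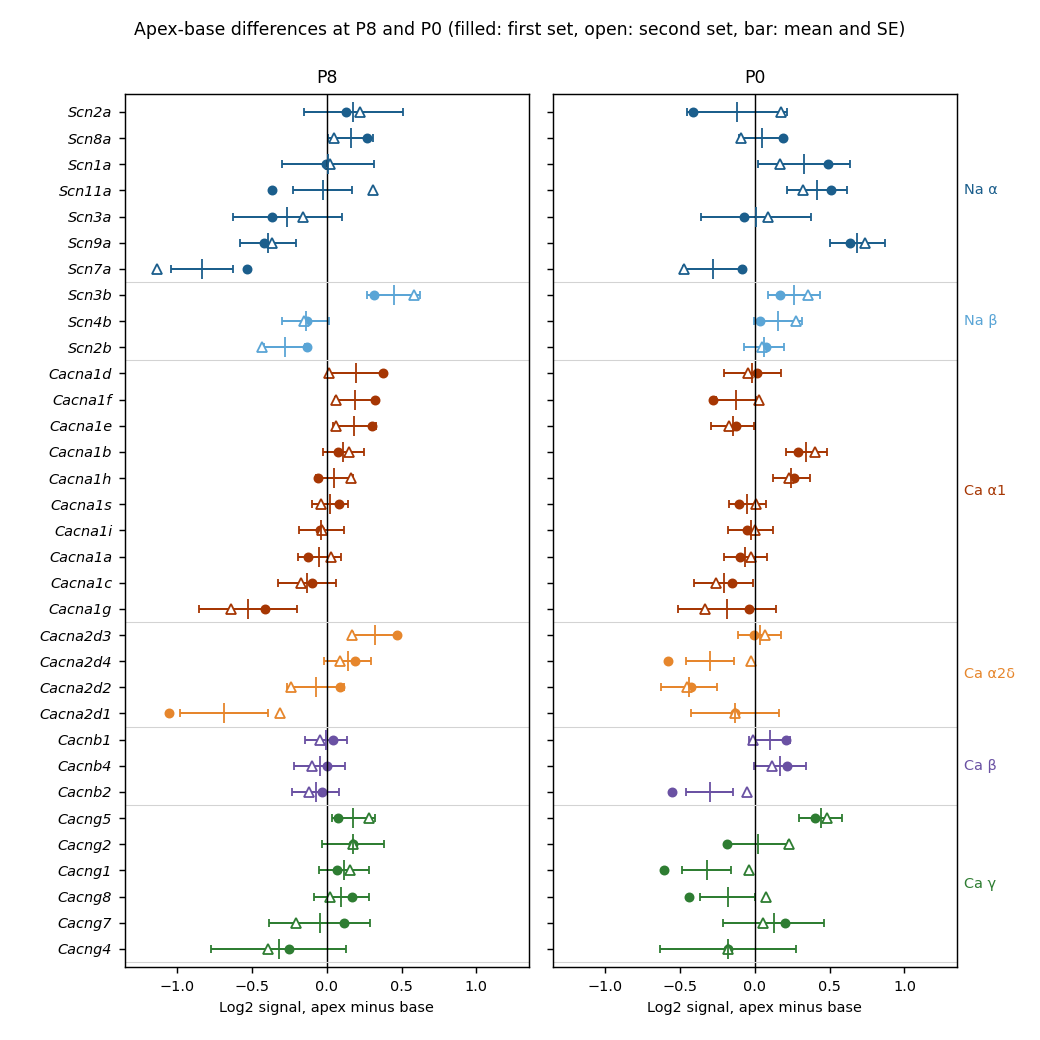
Apex minus base difference in log2 signal (horizontal axes) of the 33 tested members at P8 (left) and P0 (right), with the first set as filled circles, the second as open triangles and the mean with its SE as a bar. At P8 Scn7a (-0.83) and Cacna2d1 (-0.69) lie farthest below 0, and at P0 Scn9a (0.69) lies farthest above it.

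Genes that work with the channels were counted from a fixed list. Their counts between the ages stand beside 2.06% of all tested genes that rose and 1.14% that fell. Of 15 sodium channel partners, among them the ankyrins, intracellular fibroblast growth factors and node proteins, 14 were tested and 0 passed between the ages, with a median of 0.05. Nrcam, a cell adhesion protein of nodes, was lower at P8 by less than 2-fold (-0.69 ± 0.08, limma adjusted p = 0.000454), as was Fgf12, which binds the tail of the alpha subunit (-0.54 ± 0.10, limma adjusted p = 0.00512). For apex over base at P8, 1 sodium channel partner passed, Nrcam (0.99, limma adjusted p = 0.0351, background 0.178% higher). With the set as a block, Nrcam (limma adjusted p = 0.00229, background 1.13% higher) and Fgf14 (-0.78, limma adjusted p = 0.0372, background 0.442% lower) passed. Of 30 calcium channel partners 28 were tested, 2 fell and 0 rose, with a median of -0.11. Jph1, a junctophilin that ties the surface membrane to the calcium store, averaged 7.26 at P8 and 8.51 at P0 (-1.25 ± 0.17, limma adjusted p = 0.00119). Rims2, a scaffold of the presynaptic active zone, averaged 6.97 at P8 and 7.98 at P0 (-1.02 ± 0.13, limma adjusted p = 0.000928).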

How the data were processed

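RNA of 12 pooled cochlear samples was hybridised to Affymetrix Mouse Gene 1.0 ST arrays. The deposited values are log2 RMA signals made by the authors, and whether 1 RMA run covered all arrays is not given in the sources used here. Entries were named through the platform annotation: of 35556, 21789 had 1 symbol, 1621 several and 12146 none. Each gene took its entry with the highest mean over the 12 arrays. Means of 6 groups were fitted with limma 3.58.1 in R 4.3.3, without a block, as the study's methods used an unpaired test, and p-values were adjusted over 16306 genes. Replicates were separate dissections, so the spread within a group is that between 2 pools. The fit without a block takes the 3 pieces of a pool as independent, although arrays of a pool correlated at 0.689. Its SEs and p-values between the ages can therefore be too small. For Scn9a the limma adjusted p was 1.92e-05 in that fit and 0.0654 with the mean of each pool as the unit. The pieces of a set and age came from the same animals, so each pool was also used as a block. Deviations of same-set arrays correlated at 0.544 to 0.916 over 15 pairs of groups, which include P8 with P0 groups and so different animals. The sample titles carry a different year for each set, and what else differed between the sets is not given. The set was therefore used as a block too. Markers and partners were fixed lists. Members and lists were chosen with earlier results of these data known. Given in full are members past the test in any of the 7 comparisons, without a block or with the set as a block. The hair cell genes Cacna1d and Cacnb2, the muscle types and the chromosome 2 cluster are also given in full. Other members are given by range. Values for Cacna2d1, Cacna1b and partner genes named beyond this were picked after they were seen. The number of arrays limits the precision. The fit was run on simulated data with independent noise, without the shared deviations of a set or pool. That run therefore cannot show whether the p-values between the ages are too small.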

Additional observations from a re-analysis of the deposited data

Results flagged for a closer look

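In 4 of the 66 sets of 6 arrays (33 members at 2 ages), 1 array stood apart from the other 5 by Dixon's criterion, which chance meets in about 1 in 20. These were Cacna1f in the first P8 apex array (6.23), Scn1a in the first P0 apex array (6.48), and Cacnb1 (7.88) and Scn8a (6.76) in the first P0 base array. The 6 arrays of an age span 3 regions and are not replicates of 1 group.

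The apex-base difference ran one way at P8 and the other way at P0, in both dissection sets, for 5 members, and this reversal was not tested as such. The share of all tested genes with such a reversal was not counted, so the count is not read as a result about the members. Some of the differences were near 0 at P0, such as -0.02 for Cacna2d4 in the second set and 0.04 for Scn4b in the first. The change from P0 to P8 was 0.33 for Cacna1e, 0.44 for Cacna2d4, 0.44 for Cacng1, -0.34 for Scn2b and -0.30 for Scn4b. Scn9a differed in the same way, with a change of -1.08, and passed the test of the change only with each pool as a block.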

How the results depend on the processing

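Other choices left most member counts within 1.5 times of those given, and the cause of the exceptions was not tested unless the setting's own construction gives it. Between the ages over the mean of 3 regions, 5 members passed, 0 with the mean of each pool as the unit, which leaves 2 values an age, and 13 with no fold required. Requiring no fold gave 7 members for the base, 1 higher and 6 lower, beside 2.37% and 1.51% of all genes. It gave 7 for the middle (1 higher and 6 lower, beside 2.4% and 1.66%) and 6 for the apex (1 and 5, beside 2.44% and 2.15%). The methods' t-test with Benjamini-Hochberg adjustment, added after seeing the data, gave 0 members and 0 of all genes in each region. Leaving out 1 array gave 4 to 6 members over the mean of 3 regions, 2 to 4 (base), 3 to 4 (middle), 2 to 4 (apex) and 0 to 0 in the comparisons of apex and base. With the set as the replicate block, apex over base at P8 gave 1 member in place of 0 and the pool as a block gave 2. With the set as the block, 5, 5, 6 and 4 members passed for the mean of 3 regions, the base, the middle and the apex. The shares of all genes in that order were 2.18%, 2.25%, 2.35% and 2.23% higher and 1.26%, 1.15%, 1.33% and 1.75% lower. With 1 array left out as well, added after seeing the data, the set block gave 4 to 5, 3 to 6, 4 to 6 and 3 to 6 in the same order. For apex over base at P8 it gave 0 to 1. At P0, apex over base gave 1 member with the pool as a block and 1 with the methods' t-test without adjustment, and the change between the ages gave 1 with the pool as a block. Of the single-gene results recomputed under these settings, which do not include every member, Cacnb2 changed sign between the ages: 0.01 as given, -0.0274 with quantile normalization, -0.05 to 0.0676 with 1 array left out, and -0.046, -0.038, -0.0107 and -0.0082 in the 4 block fits with 1 array left out that turned it. Scn11a in the apex was -0.98, under the fold of 2, after median centring. Signal near the level of 6 limits Scn7a, Scn3a, Scn1a and Scn11a.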
